A study of Homo sapiens with 16 samples.

Results

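H3K4me3, a histone mark of active and poised promoters, was compared between plain TKO cells and TKO cells expressing wild type NSD2 (WT), with 1 library and 1 deposited peak list for each. Both lists were used whole: 7396 peaks in TKO and 8140 in WT, together 15536 of the 45429 peaks in the 8 lists of the series. TKO is a line derived from KMS-11, an established multiple myeloma line with the t(4;14) translocation, and the labels give it the genotype WHSC1(+/-) and the cell type plasma cell. WHSC1 is another name of NSD2, and this genotype label is shared by every group, WT included. The labels name no construct for the plain TKO cells and no number of clones for either group. The series also holds TKO cells that expressed the mutant forms D1240A or F1295A, with 1 H3K4me3 list each, and an H3K27me3 list for each form. These lists served here only to place the difference between TKO and WT. With 1 library per group there was no replicate check and no test between the groups. Bounds in parentheses are 95% limits by the exact Clopper-Pearson method. They hold for counting error alone, since depth was not known.

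H3K4me3 is written by the SET1 and MLL methyltransferase complexes around the starts of active genes, and CXXC1, a subunit of the SET1 complexes, binds unmethylated CpG dinucleotides there. NSD2 is a different kind of enzyme: it writes dimethylation of H3K36 over gene bodies and between genes, a mark that hinders the Polycomb enzyme that deposits H3K27me3. In t(4;14) myeloma the immunoglobulin enhancers drive NSD2 and, in many tumours, its neighbour FGFR3. The stated question of the series is what mutant NSD2 does to histone marks. Its title concerns adhesion genes.

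NSD2 itself had an H3K4me3 peak at its start in every list, at percentile 26.1 of the list by total signal in WT and 14.01 in TKO, beside 23.5 in D1240A and 25.04 in F1295A, where 100 is the strongest peak. The mark at the start of NSD2 does not read which form is expressed, so it does not check the labels. Of 25 plasma cell genes, 17 had H3K4me3 at the start in WT and 15 in TKO, where 43.8% and 40.05% of all protein-coding genes had it. From a list of 32 T cell, NK cell and myeloid genes, 2 were marked in WT and 1 in TKO, and of 23 stromal, endothelial and epithelial markers 3 and 2. CD38, a surface protein of plasma cells, had no peak at its start in either list.

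Promoters that stood apart between the lists are shown first, as the 250 bases before the gene start on the strand of the gene, from the RefSeq promoter table of GRCh38.p14. Capitals mark CG dinucleotides, by which groups of promoters are compared further on. The first 3 promoters had a WT peak and no TKO peak. They belong to the zinc finger gene ZNF687 (chr1:151282049-151282298, plus strand, 17 CG dinucleotides), to TAGLN2, which encodes an actin-binding protein (chr1:159925508-159925757, minus strand, 15), and to EPB41L3, which encodes a protein of the membrane skeleton (chr18:5628992-5629241, minus strand, 25).
ZNF687: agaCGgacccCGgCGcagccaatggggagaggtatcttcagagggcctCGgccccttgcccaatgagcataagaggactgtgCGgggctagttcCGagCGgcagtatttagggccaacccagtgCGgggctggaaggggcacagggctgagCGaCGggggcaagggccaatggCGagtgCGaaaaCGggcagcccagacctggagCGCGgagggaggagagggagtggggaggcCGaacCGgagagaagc
TAGLN2: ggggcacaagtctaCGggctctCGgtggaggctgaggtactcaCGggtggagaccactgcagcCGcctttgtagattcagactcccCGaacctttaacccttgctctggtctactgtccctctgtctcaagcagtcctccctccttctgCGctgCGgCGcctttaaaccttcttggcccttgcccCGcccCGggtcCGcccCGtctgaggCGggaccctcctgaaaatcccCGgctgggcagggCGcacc
EPB41L3: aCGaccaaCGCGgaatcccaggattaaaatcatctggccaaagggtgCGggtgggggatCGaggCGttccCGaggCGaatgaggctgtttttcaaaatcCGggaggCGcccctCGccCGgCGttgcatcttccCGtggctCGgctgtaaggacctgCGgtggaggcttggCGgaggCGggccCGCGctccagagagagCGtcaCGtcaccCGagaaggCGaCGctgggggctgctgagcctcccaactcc
The next 3 promoters had a peak in both lists that stood far lower among the peaks of TKO than among those of WT. They belong to IGF2BP2, an RNA-binding protein gene (chr3:185825043-185825292, minus strand, 32 CG dinucleotides), to ZBTB18, a transcriptional repressor gene (chr1:244048403-244048652, plus strand, 26), and to AUTS2 (chr7:69598225-69598474, plus strand, 49).
IGF2BP2: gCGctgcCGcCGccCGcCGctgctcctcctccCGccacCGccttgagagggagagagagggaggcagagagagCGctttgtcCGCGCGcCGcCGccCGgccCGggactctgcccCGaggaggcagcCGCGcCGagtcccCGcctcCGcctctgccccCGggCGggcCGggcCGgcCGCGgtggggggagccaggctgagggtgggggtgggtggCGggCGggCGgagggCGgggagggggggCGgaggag
ZBTB18: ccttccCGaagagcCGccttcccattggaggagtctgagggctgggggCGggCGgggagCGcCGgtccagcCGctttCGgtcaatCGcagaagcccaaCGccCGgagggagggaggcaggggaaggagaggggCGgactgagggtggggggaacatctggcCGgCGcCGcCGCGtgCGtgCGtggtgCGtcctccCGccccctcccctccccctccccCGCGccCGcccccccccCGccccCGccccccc
AUTS2: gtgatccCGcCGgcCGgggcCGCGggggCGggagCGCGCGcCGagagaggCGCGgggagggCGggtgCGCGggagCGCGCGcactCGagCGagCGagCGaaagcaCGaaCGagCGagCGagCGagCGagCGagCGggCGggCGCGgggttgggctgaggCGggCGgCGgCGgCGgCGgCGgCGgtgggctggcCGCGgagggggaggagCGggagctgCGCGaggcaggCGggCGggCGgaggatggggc
The last 3 had a peak in both lists that stood higher in TKO. They belong to ID2, an inhibitor of basic helix-loop-helix factors (chr2:8681806-8682055, plus strand, 29 CG dinucleotides), and to the ribosomal protein genes RPL32 (chr3:12841566-12841815, minus strand, 7) and RPS14 (chr5:150449740-150449989, minus strand, 23).
ID2: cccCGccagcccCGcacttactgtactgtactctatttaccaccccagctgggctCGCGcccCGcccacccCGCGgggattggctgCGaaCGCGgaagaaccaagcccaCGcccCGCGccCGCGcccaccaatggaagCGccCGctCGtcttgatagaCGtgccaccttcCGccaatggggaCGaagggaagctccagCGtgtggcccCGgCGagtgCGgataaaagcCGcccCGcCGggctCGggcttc
RPL32: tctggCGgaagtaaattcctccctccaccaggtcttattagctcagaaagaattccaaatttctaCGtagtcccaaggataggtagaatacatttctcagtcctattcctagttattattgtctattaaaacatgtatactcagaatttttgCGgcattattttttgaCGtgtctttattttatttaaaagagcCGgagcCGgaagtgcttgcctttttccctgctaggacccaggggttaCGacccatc
RPS14: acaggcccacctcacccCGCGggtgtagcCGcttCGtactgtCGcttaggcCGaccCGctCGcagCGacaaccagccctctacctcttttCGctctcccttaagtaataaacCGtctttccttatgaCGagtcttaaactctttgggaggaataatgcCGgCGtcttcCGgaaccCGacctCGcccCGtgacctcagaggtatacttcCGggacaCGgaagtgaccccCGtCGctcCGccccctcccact
The 3 promoters that stood lower in TKO held 77.2% to 82.8% G and C bases, and the 3 with a WT peak alone 64% to 66.4%. Of the 3 that stood higher in TKO, ID2 held 69.2%, RPS14 59.6% and RPL32, the lowest shown, 40.4%. These 9 were chosen after their values were seen, and promoters over all genes are described further on.

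The TKO list was shorter and its peaks were narrower and weaker. It covered 21.95 Mb against 30.2 Mb in WT, and its median peak width was 2704.5 bp against 3293 bp. The median peak had a highest signal of 215 in TKO against 430 in WT, and the mutants had 413 (D1240A) and 494 (F1295A), so TKO was the low one of the 4 lists. Any scaling of the signal is not given in the sources used here, so less mark per cell, a shallower library and a lower efficiency of the assay cannot be told apart. For that reason signal was compared between the lists by rank, and a highest signal printed further on is to be read against these medians and not against the other list.

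Of the 8140 WT peaks, 885 shared no base with a TKO peak, which is 10.9% (10.2% to 11.6%), and of the 7396 TKO peaks 69 shared none with a WT peak, which is 0.933% (0.727% to 1.18%). Nearly all of these one-sided peaks lay at the weak end of their list. With the WT list cut into 10 classes of equal size by total signal, 62.9% of the peaks in the weakest class had no TKO peak, 27.4% in the next and 11.1% in the one after. In each of the strongest 5 classes the share was at most 0.860%. In all, 791 of the 885 lay in the weakest 25% of the WT list and 10 above its median. Of the 69 TKO peaks without a WT peak, 63 lay in the weakest 10% of the TKO list and 0 above its median.

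**Figure D1:**
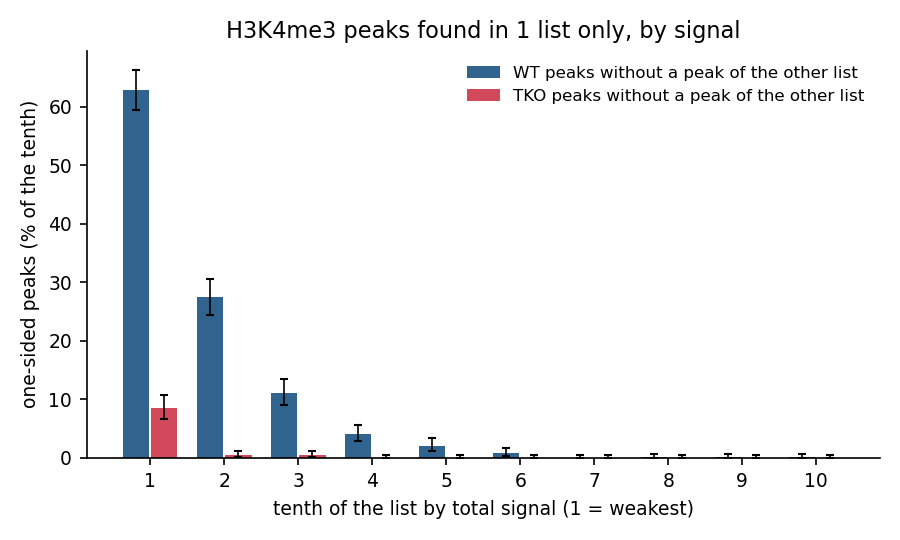
Share of peaks without a peak of the other list, in 10 classes of each list from the weakest (1) to the strongest (10) by total signal. Bars are shares of the peaks in a class and error bars are exact 95% intervals of counting error. In the weakest class the share was 62.9% in WT and 8.53% in TKO, and it was near 0 in the stronger classes of both lists.

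The lengths of the lists bear on these counts. When the 7396 strongest WT peaks were set against the 7396 TKO peaks, 403 WT peaks (5.45%) and 330 TKO peaks (4.46%) were one-sided. Nearly all shared peaks pair one to one, so lists of equal length must give nearly equal counts. This setting therefore cannot tell whether the excess of one-sided WT peaks is more than list length. The weakest peaks called also differed. At the median pair of shared peaks the WT total signal was 2.20 times that of TKO, and on that scale the weakest TKO peak would stand at 159626 in the WT list, whose weakest peak was 138989. Of the 885 one-sided WT peaks, 384 (43.4%) lay under 159626 and 501 (56.6%) lay at or over it. Among WT peaks at or over that level, 6.59% had no TKO peak.

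One-sided WT peaks sat mostly at gene starts, as shared peaks did. A protein-coding start lay within 1 kb of 734 of the 885 (82.9%, 80.3% to 85.4%), against 92.4% of the 7255 WT peaks with a TKO peak (91.8% to 93.0%). Within the weakest 25% of WT peaks the shares were 82.0% of the one-sided and 90.7% of the shared peaks. Outside gene starts, 48 one-sided WT peaks lay inside a protein-coding gene record and 28 outside any such record. By chromosome the one-sided share ran from 5.78% on chromosome 19 to 20.5% on chromosome X, where 41 of 200 WT peaks had no TKO peak.

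Most of the places without a TKO peak were marked in the mutant forms. D1240A had a peak at 56.9% of the 885 one-sided WT peaks (53.6% to 60.2%), F1295A at 86.8% (84.4% to 88.9%) and neither at 10.7%. At WT peaks with a TKO peak the shares were 98.7% and 99.7%, and among those in the weakest 25% of the WT list 92.8% and 98.7%. So in both mutants the share was lower at the one-sided places, and it was lowest in D1240A. The mutant lists differ in length, with 7712 H3K4me3 peaks in D1240A and 8239 in F1295A, and these shares were not adjusted for this. Above the weakest 25% of the WT list, 89 of 94 one-sided WT peaks (94.7%) had a D1240A peak and 89 of 94 an F1295A peak. Of the 69 TKO peaks without a WT peak, D1240A had 15 (21.7%) and F1295A 40 (58.0%), and 27 (39.1%) were in neither. At 85 of the 94 stronger one-sided WT peaks (90.4%) both mutants had a peak, while TKO has none there by the choice of these places.

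The share under an H3K27me3 peak was higher for one-sided WT peaks than for shared ones. A TKO H3K27me3 peak overlapped 66 of the 885 (7.46%, 5.81% to 9.39%), against 1.38% of the WT peaks with a TKO peak (1.12% to 1.67%). A WT H3K27me3 peak overlapped 52 of the 885 (5.88%, 4.42% to 7.63%), against 1.46%. Among the 94 above the weakest 25% the counts were 16 (17.0%) with TKO H3K27me3 and 6 (6.38%) with WT H3K27me3. The overlap was present with the H3K27me3 list of either form. These lists differ in length, with 5881 H3K27me3 peaks in TKO and 3790 in WT. H3K27me3 found in 1 form alone, here and at genes named further on, was not adjusted for this.

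Genes with a peak no more than 1 kb from a start are called marked. Of 19974 protein-coding genes, 8754 were marked in WT and 7999 in TKO, and 7938 in both. WT alone marked 816 genes, 4.09% of all and 9.32% of those marked in WT, and TKO alone marked 61, or 0.305% of all. At 717 of the 816 and 49 of the 61 the other list had no peak within 10 kb. The genes named next had the highest total signal among these, and their percentile is the place of the peak in its own list by total signal, where 100 is the strongest.

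ZNF687 had the strongest one-sided mark. Its WT peak (chr1:151278720-151285394) stood at percentile 97.7 with a total signal of 1343523, against a list median of 335880, and the nearest TKO peak was 22.4 kb away. D1240A and F1295A had peaks at its start at percentiles 97.4 and 97.9 of their lists, so TKO was the sole list of the 4 without it. TAGLN2 (chr1:159922819-159927216) stood at percentile 87.8 in WT with a highest signal of 703. None of TKO, D1240A and F1295A had a peak at its start, so here WT stood alone.

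EPB41L3 (chr18:5627719-5631084) stood at percentile 70.2 in WT with a highest signal of 320, and at 37.1 in D1240A and 60.5 in F1295A. DBN1, which encodes the actin-binding protein drebrin, stood at percentile 58.2 in WT, and EPB41L4A, a relative of EPB41L3, at 57.4. FADS1 and FADS2, neighbouring fatty acid desaturase genes, shared a WT peak at percentile 52.1 (highest signal 238), and in TKO they had H3K27me3 at the start, which WT lacked. CACNA2D1, a calcium channel subunit gene, stood at percentile 52.1 (highest signal 464) and likewise had H3K27me3 in TKO and not in WT. NFATC1, a transcription factor of activated lymphocytes, stood at 51.6, NEO1, a receptor of guidance cues, at 50.5 and PPM1H, a phosphatase gene, at 48.3. SLC6A15, a transporter gene read at either end of its record, stood at 49.95. Every one of these 10 genes was marked in D1240A and in F1295A as well.

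Genes marked in TKO alone had weak peaks. Among the stronger of them was NAV1, a gene of neuron navigation, at percentile 22.1 of the TKO list. NAV1 had H3K27me3 in WT and not in TKO. UFM1, which encodes a ubiquitin-like modifier, stood at 11.3, and SNF8, ZNF484, MED27, TM2D1, KDM4B, CTBS, IP6K2, UBXN11 and RBBP7 stood between 4.25 and 9.63. KDM4B is a demethylase of H3K9, and RBBP7 is a histone-binding subunit of several chromatin complexes. Their highest signals were 105 and 82, below the TKO list median of 215.

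Shared peaks were compared in 7183 one-to-one pairs, in which a WT and a TKO peak overlapped each other and nothing else in the other list. A further 69 WT peaks lay over 2 or 3 TKO peaks and 2 TKO peaks over 2 WT peaks. TKO peaks were the narrower ones in 6601 pairs, or 91.9% (91.2% to 92.5%). The median pair measured 3374 bp in WT and 2706 bp in TKO with a median log2 ratio of -0.29, a ratio of 0.816, with quartiles of -0.48 and -0.14. The median log2 ratio was -0.30 in each of the weaker 2 of 4 classes of pairs by WT signal, -0.29 in the next class and -0.28 in the strongest.

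The peaks were drawn in from both sides. In 4802 pairs over starts on 1 strand, the median WT peak began 1301 bp upstream of the start and ended 1938 bp downstream of it, and the median TKO peak reached 1008 bp upstream and 1587.5 bp downstream. The TKO edge lay inside the WT edge by a median of 227 bp upstream and 316.5 bp downstream, and more downstream than upstream in 2719 pairs (56.6%, 55.2% to 58.0%). The place of highest signal did not shift with the edges, at a median of 170 bp downstream of the start in WT and 173.5 bp in TKO.

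**Figure D2:**
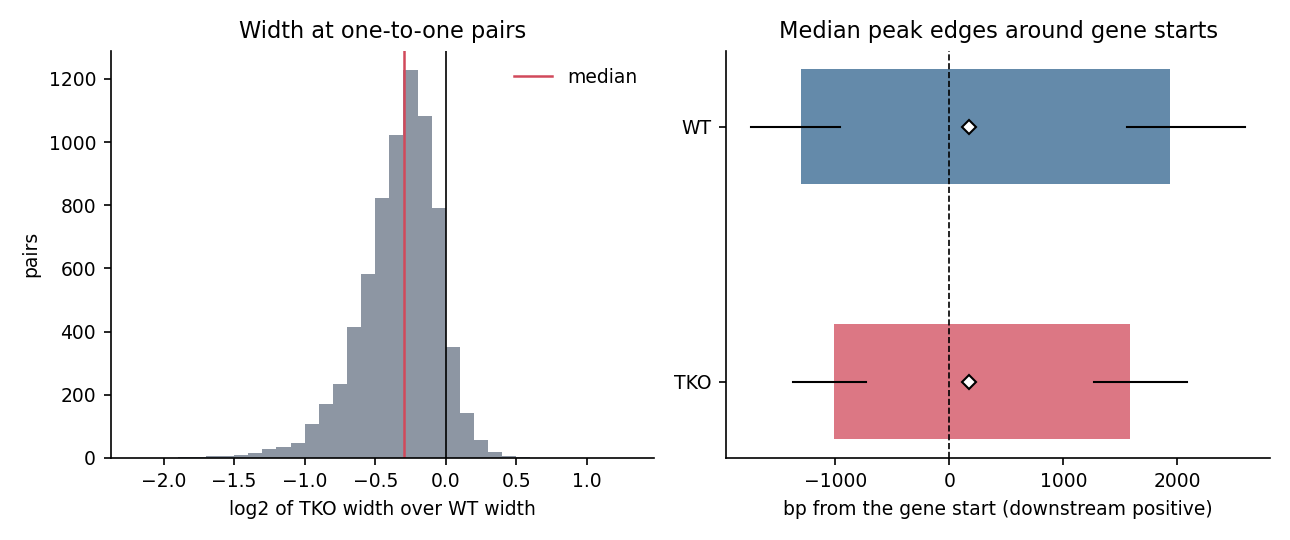
Left, number of one-to-one pairs by log2 of TKO width over WT width, with the median (-0.29) in red and equal width in black. Right, median reach of the peaks around 4802 gene starts in bp, with black lines from the first to the third quartile of each edge and diamonds at the median place of highest signal. The TKO bar lies inside the WT bar on both sides.

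A TKO peak of at most 1 in 2 of the WT width was found in 150 pairs, or 2.09%, and a TKO peak of at least 2 times the WT width in 2. At IMPDH1, the gene of a rate-limiting enzyme of guanine nucleotide synthesis, the WT peak of 7567 bp stood against a TKO peak of 1858 bp (log2 ratio -2.03) that no longer reached the start read. The D1240A peak of the region did not reach that start either, and F1295A had one of 7805 bp that did. MTX1 and THBS3, which share a promoter region, had 9749 bp in WT and 2648 bp in TKO (-1.88). EFNA3, an ephrin ligand gene, lay under a WT peak of 10530 bp whose TKO partner of 3013 bp no longer reached its start (-1.81). CDK14, a cyclin-dependent kinase gene, had the longest of these WT peaks, 22683 bp against 6733 bp (-1.75), and 12409 bp in D1240A and 14851 bp in F1295A. GIT1 with ANKRD13B, TRABD, PEA15 and DVL1 had log2 ratios from -1.70 to -1.58. Some of these places were narrow in a mutant too. D1240A had 3463 bp at MTX1 and THBS3 and 3097 bp at GIT1, where F1295A had 9567 and 8652 bp. At DVL1 D1240A had 2900 bp and F1295A 2892 bp, against 6768 bp in WT, and neither had a peak at the EFNA3 start. At TRABD they had 6658 and 9202 bp, against 7133 bp in WT, and at PEA15 7622 and 5618 bp, against 8147 bp. The percentiles of the genes with narrow TKO peaks changed to different degrees by total signal. At MTX1, EFNA3 and PEA15 the change was -1.46, -3.79 and -6.21 points, and at CDK14, GIT1, IMPDH1 and TRABD it was -12.4, -23.7, -29.5 and -33.8. Mean signal per base went the other way, with a percentile change of 77.8 at MTX1, 50.5 at EFNA3 and 62.8 at PEA15.

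Few strong peaks were wider in TKO. OLFML2B, a gene of an olfactomedin-like secreted protein, measured 2477 bp in WT and 3522 bp in TKO (log2 ratio 0.51). ZNF764 had 2414 and 3324 bp (0.46) and ICMT, a protein methyltransferase gene, 2279 and 3086 bp (0.44). DIP2A, ADCY3, NAP1L4, CDC123 with NUDT5, PDXP and the ribosomal protein gene RPL13A had log2 ratios between 0.34 and 0.36.

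The order of shared peaks was largely the same in both lists. Spearman's rho of total signal was 0.947 across the 7183 pairs, which are peaks of the same 2 libraries and not replicates. Each peak was given its percentile among the pairs in either list, and a move by over 10 percentile points is called a fall or a rise in TKO. On this rule 795 pairs (11.1%, 10.4% to 11.8%) fell and 826 (11.5%, 10.8% to 12.3%) rose, and the quartiles of all moves were -4.12 and 5.26 points. Large moves went mostly down: 73 pairs fell by over 30 points and 9 rose by over 30. Ranked by the highest signal in place of the total, 1428 pairs fell and 1519 rose, and 67 of the 73 still fell. Of the 795 falls by total signal, 533 were also falls by highest signal and 527 by mean signal. Of the 826 rises, 577 and 492 were. Many calls thus depend on the measure ranked.

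**Figure D3:**
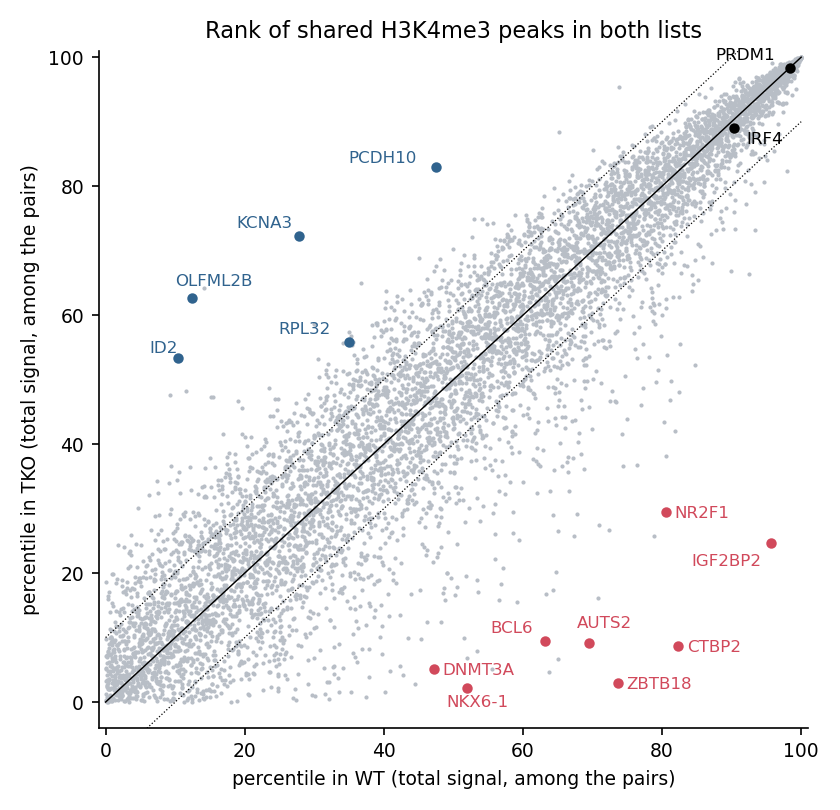
Percentile of each one-to-one pair by total signal in WT (horizontal) and TKO (vertical), with 1 grey point per pair, the line of equal rank and dotted lines at 10 points above and below it. Named genes in red fell, those in blue rose and those in black moved by less than 10 points. CTBP2, IGF2BP2, ZBTB18 and AUTS2 lie between percentiles 69.5 and 95.6 in WT and at most at 24.7 in TKO.

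CTBP2, a transcriptional corepressor gene, made the largest fall. Its WT peak (chr10:125158017-125162146) stood at percentile 82.3 with a highest signal of 651, and its TKO peak at 8.70 with a highest signal of 93, where the medians of the pairs were 458 and 215. IGF2BP2 (chr3:185822589-185827129) went from 95.6 to 24.7, with highest signals of 709 and 84, and H3K27me3 lay at its start in TKO and not in WT. ZBTB18 (chr1:244046780-244051517) went from 73.7 to 2.94, with highest signals of 513 and 98. In each case the TKO peak was far under its own list's median while the WT peak was over it.

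AUTS2, a gene of a Polycomb-associated regulator of neural development, went from percentile 69.5 to 9.23, and SPRY2, an inhibitor of receptor tyrosine kinase signalling, from 65.1 to 6.71. MRPL14 and TMEM63B, which share a promoter region, went from 70.7 to 16.1 with highest signals of 941 and 97. BCL6, a transcriptional repressor needed by germinal centre B cells and silenced in plasma cells, went from 63.1 to 9.43, and its TKO peak of 2639 bp no longer reached the start that the WT peak of 5610 bp covered. The F1295A peak reached the BCL6 start and the D1240A peak of the region did not, and H3K27me3 lay there in WT and not in TKO. ATRNL1 went from 78.9 to 25.7 and NR2F1, an orphan nuclear receptor gene, from 80.6 to 29.5. NKX6-1, a homeobox gene, went from 52.0 to 2.19 and DNMT3A, the gene of a de novo DNA methyltransferase, from 47.2 to 5.12.

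Rises were smaller. OLFML2B went from percentile 12.4 in WT to 62.6 in TKO, with highest signals of 306 and 272, so the TKO value stood over its list's median and the WT value under its own. GPR15, a chemoattractant receptor gene, went from 14.1 to 64.2, KCNA3, a voltage-gated potassium channel gene of lymphocytes, from 27.8 to 72.3, and ID2 from 10.5 to 53.4. At GPR15 F1295A had a weak peak, at percentile 6.18 of its list, and D1240A had none. PCDH10, a protocadherin gene read at either end of its record, went from 47.4 to 82.9. CBLN2, IPO11, DPF3 and CWC27 with SREK1IP1 rose by 22.3 to 28.7 points.

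The same regions were then read in the other H3K4me3 lists. Percentiles were taken again among the 6938 regions that paired one to one in all 4 lists. The 73 regions that fell by over 30 points had a median percentile of 58.8 in WT, 16.5 in TKO, 46.6 in D1240A and 49.4 in F1295A. TKO was the lowest of the 4 in all 73, and WT the highest in 63. The choice of these regions puts TKO below WT and by itself favours TKO as the lowest and WT as the highest of the 4, so these counts are a description. The choice also favours a place between TKO and WT for any list that took no part in it. D1240A and F1295A took no part, and their medians lay there. For the 777 that fell by over 10 points the medians were 48.0 in WT, 28.5 in TKO, 42.3 for D1240A and 43.2 for F1295A, and TKO was the lowest in 716.

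At the 799 regions that rose by over 10 points, TKO was the highest of the 4 in 756, which the choice of these regions likewise favours. The median percentile was 31.2 in WT, 45.8 in TKO, 34.7 in D1240A and 34.2 in F1295A. At some of the strongest risers the mutants stood nearer to TKO than to WT. At ID2 the percentiles were 9.38 in WT, 53.0 in TKO, 59.5 in D1240A and 63.2 in F1295A, and at KCNA3 26.95, 72.2, 58.9 and 60.8 in the same order. Among the 8 regions that rose by over 30 points WT was the lowest in 7, and TKO the highest in 6.

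The share of pairs under an H3K27me3 peak was highest among those that fell. A TKO H3K27me3 peak overlapped 40 of the 795 pairs that fell (5.03%, 3.62% to 6.79%), 54 of the 5562 within 10 points (0.971%, 0.730% to 1.26%) and 4 of the 826 that rose (0.484%, 0.132% to 1.24%). With WT H3K27me3 the shares were 4.53%, 1.06% and 1.09%, so the pairs that rose were close to those within 10 points. For the 73 pairs that fell by over 30 points they were 10 (13.7%) and 7 (9.59%). With either list, most of the pairs that fell had no H3K27me3 peak.

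The letters of the promoter went with the rank change. Promoter sequences of 300 bases, 250 before and 50 after the start, were held for 15812 protein-coding genes, of which 7357 had a peak in at least 1 list. Their median GC content was 72.7% at the 593 promoters whose pair fell, 67.3% at the 5092 within 10 points and 62.7% at the 830 whose pair rose. The median number of CG dinucleotides was 34, 29 and 25. Promoters marked in WT alone (676) had a median GC content of 69.7%, those marked in TKO alone (49) 62.0% and unmarked ones 58.3%.

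Marked promoters were cut into 5 classes by GC content. From the lowest class to the highest, the median rank change was 4.18, 2.52, 1.35, -0.03 and -2.42 points. The share that fell was 4.80% in the lowest class and 20.7% in the highest, and the share that rose was 23.5% and 2.83%. The share marked in WT alone was 8.44%, 7.43%, 7.03%, 9.71% and 13.6%, so the upper 2 classes stood over the other 3. Ranked by highest or by mean signal the medians still went down from the lowest class (5.35 and 4.71) to the highest (-3.40 and -4.80). Among regions in all 4 lists, the median percentile in the highest GC class was 60.2 in WT, 59.0 in D1240A, 59.1 in F1295A and 55.0 in TKO, and in the lowest 47.0, 48.8, 46.2 and 51.5. TKO had the highest of the 4 medians in the lowest class and the lowest in the highest class. The GC content of the reads in each library was not known, and the part of the library in this pattern was not tested.

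**Figure D4:**
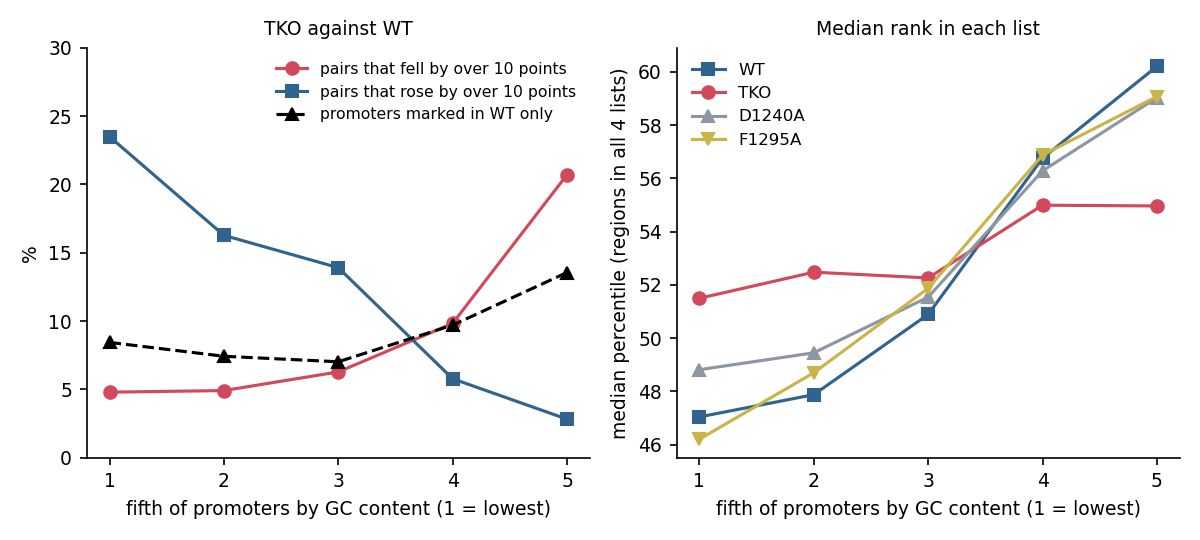
Left, share of pairs that fell or rose by over 10 points in TKO and share of promoters marked in WT alone, by class of marked promoters from the lowest (1) to the highest (5) GC content of the 300 bases. Right, median percentile by total signal of promoters in each class, in the 4 H3K4me3 lists over the regions they share. The TKO line runs from 51.5 to 55.0 while the WT line runs from 47.0 to 60.2.

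Short motifs differed as well. The letters CCGGAAG, the core bound by many ETS factors, were searched on both strands of the 300 bases, as were GGGCGG (the GC box), CCAAT and TATAAA, none of which is contained in another. CCGGAAG was present in 11.8% of promoters whose pair fell (9.32% to 14.7%), 23.04% of those within 10 points and 32.3% of those that rose (29.1% to 35.6%). It was present in 12.9% of promoters marked in WT alone, in 34.7% of the 49 marked in TKO alone and in 14.3% of all 15812. Over the 7357 promoters marked in at least 1 list the share was 22.3%. RPL32 and RPS14, shown above, hold it in the 250 bases printed, and the other 7 promoters shown do not. GGGCGG went the other way, in 85.5% of promoters that fell, 78.5% of those within 10 points and 67.2% of those that rose. It was in 59.8% of all promoters and 77.9% of the marked ones. GGGCGG holds G and C alone, and its shares were not adjusted for GC content. CCAAT was in 29.0%, 37.98% and 41.0%, against 35.8% of all and 37.1% of the marked promoters. TATAAA was in 2.19%, 4.26% and 4.10%, against 9.35% of all and 4.06% of the marked promoters. A match is a run of letters and not a bound site.

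Gene lists are described by counts beside those over all protein-coding genes, of which 9.32% of the WT-marked were unmarked in TKO, 10.7% of 6520 pairs fell and 11.6% rose, with a median move of 0.48 points. The lists were not tested, and nothing in them is particular to a list on these counts alone.

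**Figure D5:**
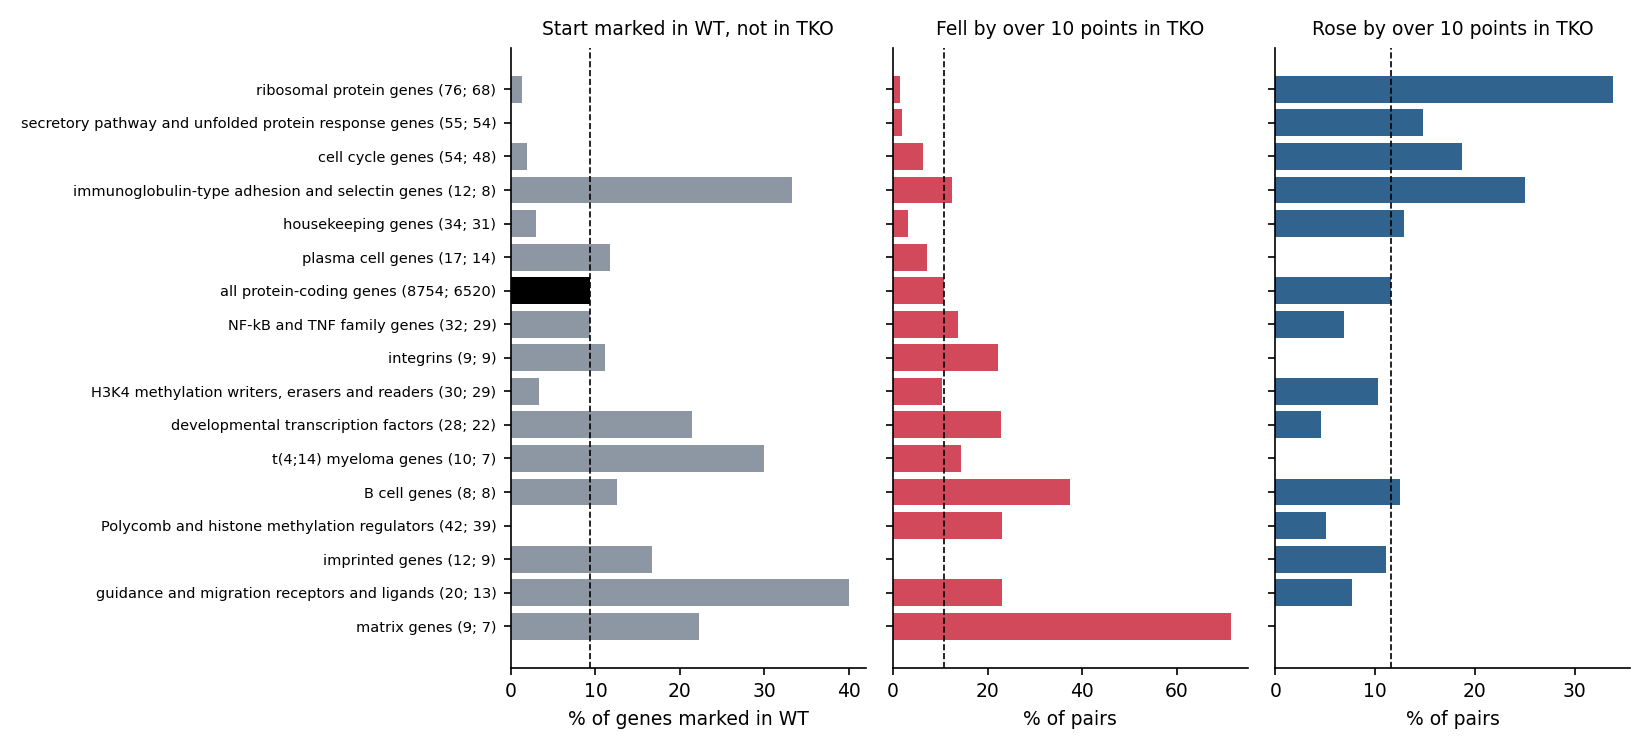
For each gene list with at least 7 pairs: share of genes marked in WT whose start had no TKO peak (left), and shares of pairs that fell (middle) or rose (right) by over 10 points. Numbers in brackets are genes marked in WT and pairs, lists are in order of the median rank change, and dashed lines give all protein-coding genes (9.32%, 10.7% and 11.6%). Ribosomal protein genes have the longest bar on the right and matrix genes the longest in the middle.

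Ribosomal proteins build the 2 subunits of the ribosome. Of 79 of their genes 76 were marked in WT and 75 in TKO, and of their 68 pairs 23 rose (33.8%) and 1 fell, with a median move of 6.69 points. RPL32 went from percentile 35.0 to 55.8 (highest signals 357 and 254), RPS14 from 41.4 to 60.8 (416 and 270), RPS24 from 40.1 to 59.1 and RPS9 from 29.1 to 47.7. For RPL32 and RPS14 the TKO highest signal stood over the pairs' median of 215 and the WT one under that of 458. RPL39 fell, from 63.0 to 51.4, and RPL14 was marked in WT alone, at percentile 2.10. The list's promoters at pairs had a median GC content of 60%, against 67.0% over all genes at pairs, and in the lowest GC class of all promoters, which reaches up to 60% GC, 23.5% of pairs rose. By highest signal 36 of the 68 rose and by mean signal 35.

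Genes of the secretory pathway and the unfolded protein response, which plasma cells use heavily, were marked almost throughout: 55 of 56 in WT and 56 in TKO. Of 54 pairs 8 rose (14.8%) and 1 fell, with a median move of 2.499 points. SEC24C, a coat subunit gene of vesicles leaving the endoplasmic reticulum, went from percentile 31.9 to 52.4, TMED10 from 2.37 to 18.9 and SEL1L, an adaptor of protein degradation there, from 21.1 to 36.4. SEC62, a subunit gene of protein import, fell from 36.7 to 21.4. SEC13 was marked in TKO alone, at percentile 0.08 of the TKO list. Among 48 pairs of cell cycle genes 9 rose (18.8%) and 3 fell, MCM2, CDK1 and TOP2A among the first and CDC25C, CCNE1 and MYCN the second. Of 31 pairs of housekeeping genes 4 rose, and GAPDH fell from 71.4 to 56.1, while ACTB moved by 1.87 points. Ranked by highest signal GAPDH moved by -8.54 points and by mean signal by -4.55, both within 10 points.

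Of 14 pairs of plasma cell genes 1 fell and 0 rose by total signal, and the median move was 0.49 points. Ranked by highest signal 1 fell and 6 rose, with a median move of 4.67 points. PRDM1, the master regulator of plasma cell differentiation, had peaks of 24520 bp in WT and 22606 bp in TKO at percentiles 98.5 and 98.3. IRF4 stood at 90.4 and 89.1, and XBP1, the transcription factor of the secretory programme, at 77.7 and 75.8. TNFRSF17, the gene of the survival receptor BCMA, fell from 68.4 to 38.5 (highest signals 248 and 103), and SDC1 and POU2AF1 were marked in WT alone. SDC1, the gene of CD138, stood at percentile 9.80 of the WT list and carried H3K27me3 in both forms. POU2AF1, a coactivator gene of B lineage cells, stood at 5.16. At MZB1 the WT peak of 11347 bp lay over several TKO peaks, the strongest of 3187 bp.

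Of 10 genes tied to t(4;14) myeloma with a mark in WT, 3 were unmarked in TKO (30%). FGFR3 had a weak WT peak of 6427 bp at percentile 2.49 with a highest signal of 75, and H3K27me3 in both forms. DSG2, a desmosomal cadherin gene, stood at percentile 7.37 in WT, and CA2, a carbonic anhydrase gene, at 19.4. CDH2, the gene of N-cadherin, fell from 71.3 to 49.4 with highest signals of 344 and 121. CCND2, a D-type cyclin gene of many t(4;14) myelomas, moved by 0.45 points by total signal, from 92.4 to 92.9. By highest signal it moved by -14.8 points and by mean signal by -10.7. Of 8 B cell genes marked in WT, BCL6 and TCF3 fell, TCF3 from 73.6 to 57.5, and BTK rose from 5.86 to 21.0 under a peak it shares with RPL36A. LYN, a kinase gene of B cell receptor signalling, fell from 35.2 to 19.5.

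Adhesion and guidance genes were followed because the title of the series names cell adhesion. Few of them were marked at all. Of 66 guidance and migration genes 20 were marked in WT, and 8 of these 20 were unmarked in TKO (40.0%, against 9.32%). They were the plexin genes PLXNA1 (percentile 31.0 in WT) and PLXNA2 (38.03), which encode semaphorin receptors, the semaphorin genes SEMA4B (11.3) and SEMA6A (9.79), the ephrin receptor gene EPHA7 (29.8), the ephrin genes EFNB1 (16.6) and EFNA3, and the netrin receptor gene UNC5C (1.15). Apart from EFNA3, which lay under the long peak described above, these stood below the WT median. Of 13 pairs 3 fell, the ephrin genes EFNB2 (38.6 to 13.1) and EFNA5 (37.96 to 14.9) and SEMA4C (79.5 to 61.8). CXCR4, the receptor of the chemokine CXCL12, rose from 17.4 to 38.01.

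Matrix genes had 5 falls and 0 rises among 7 pairs, with a median move of -14.6 points. The 5 were the laminin subunit genes LAMA5 (39.7 to 15.0) and LAMC1 (79.0 to 58.6), the versican gene VCAN (37.7 to 19.5), the teneurin gene TENM3 (70.2 to 55.6) and the gene of the metalloproteinase inhibitor TIMP2 (69.8 to 57.5). VCAN had H3K27me3 in TKO and not in WT, and LAMA5 in WT and not in TKO. AGRN and TENM4 were marked in WT alone, at percentiles 7.002 and 18.8, and both carried H3K27me3 in both forms. By highest signal 4 of the 7 fell and 0 rose, and by mean signal 4 fell and 2 rose.

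Cadherins moved both ways. CELSR3, DSG2 and PCDH7 were 3 of 8 WT-marked genes without a TKO peak, at percentiles 0.799, 7.37 and 39.7, while PCDH9 (40.3 to 62.1) and PCDH10 rose and CDH2 fell. Among immunoglobulin-type adhesion genes ALCAM (31.1), NECTIN2 (12.96), F11R (9.94) and SELPLG (8.61), the gene of the P-selectin ligand, were marked in WT alone, 4 of 12. ICAM5 rose from 53.0 to 74.9 and NRCAM from 56.3 to 69.1. Of 9 integrin genes marked in WT, ITGB1, the most widely used beta subunit, fell from 68.0 to 40.3 (highest signals 510 and 166) and ITGB5 from 68.0 to 55.0, with 0 rises. ITGAL had no TKO peak within 1 kb of an end of its record, although its WT peak had a TKO partner.

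Genes of Polycomb and of histone methylation kept their marks: 42 of 47 were marked in WT and each of these also in TKO, and KDM4B and RBBP7 were marked in TKO alone. Of 39 pairs 9 fell (23.1%) and 2 rose. DNMT3A fell by the most, 42.1 points. PHF19, a subunit of Polycomb repressive complex 2, fell from 32.9 to 5.54, the Polycomb repressive complex 1 genes CBX2, PCGF5 and RNF2 from 69.5 to 45.7, 36.8 to 17.3 and 65.0 to 46.0, and NSD1, a relative of NSD2, from 53.3 to 37.5. TET3, PHF1 and KDM6B fell by 12.7 to 18.8 points, and DNMT1 (53.0 to 69.3) and KDM4A (33.8 to 48.5) rose. The list's promoters at pairs had a median GC content of 71.7%. Of 29 pairs of genes that write, erase or read H3K4 methylation 3 fell and 3 rose. SPIN1, a reader of H3K4me3, fell from 48.6 to 17.0 and SETD1A, a writer, from 58.5 to 41.2, and CXXC1 rose from 43.95 to 61.8.

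Developmental transcription factor genes had mostly weak one-sided marks. Of 28 marked in WT 6 were unmarked in TKO (21.4%). Among these were GATA2, TBX2, TBX3, SIX2 and NKX2-1, between percentiles 0.43 and 6.81 of the WT list. DLX2 was marked in TKO alone and carried H3K27me3 in WT. Of 22 pairs 5 fell and 1 rose by total signal (median move -1.09 points), and 4 fell and 6 rose by highest signal (3.92). Besides NKX6-1 the falls by total signal were IRX3 (76.1 to 54.8), SOX9 (45.9 to 27.2), FOXC1 (18.3 to 3.47) and MEIS2 (79.4 to 66.9), and SOX6 rose from 26.1 to 37.4. Of 29 pairs of NF-kB and TNF family genes 4 fell and 2 rose, REL, the gene of an NF-kB subunit, from 35.8 to 16.4 and BBC3, a gene of apoptosis, from 79.97 to 59.96 among the falls.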

How the data were processed

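H3K4me3 was profiled by ChIPmentation, in which sonicated, immunoprecipitated chromatin is tagmented, after fixation in 0.8% formaldehyde, per the labels' protocols. The submitters' processing notes name Trimmomatic 0.36, FastQC 0.11.4, Bowtie2 2.4.5, SEACR 1.3 and GRCh38, with no settings, control or threshold. Each peak of the authors' deposited lists carries a total signal and a highest signal, which are the authors' own values. For scaling and depth nothing is stated there. Each H3K27me3 list covers 2 samples of a form.

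Peaks sharing at least 1 bp were called shared. Signal was ranked within the same one-to-one pairs. Gene starts came from the RefSeq GRCh38.p14 promoter table for 15812 protein-coding genes, and 4162 others were read at either end of their record. Analyses used python 3.11.15, numpy 2.4.6, scipy 1.17.1, pandas 2.3.3 and matplotlib 3.10.9. On a simulated list, 500 of 500 dropped and 200 of 200 lowered peaks were recovered. That list was a copy of the WT list with evenly reduced widths and signals and no noise. Its recovery checks the counting rules alone and cannot show what depth or a threshold does to the real lists.

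The members and gene lists were chosen with earlier results of these data known. Named were the 12 strongest one-sided genes per direction with no peak of the other list within 10 kb, the 10 largest width and rank changes per direction among stronger pairs, up to 4 one-sided members per list and direction, and 10 fixed genes. List members that fell or rose, and the 9 promoters shown, were chosen after their values were seen. Alternatives varied overlap, list length, pairing, window and the signal ranked. H3K27me3 of the mutant forms was not used here. Some genes that the naming rule selects are not reported here.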

Additional observations from a re-analysis of the deposited data

How the results depend on the processing

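No paired analysis was possible because each form has 1 H3K4me3 library and no replicate number. Of the alternatives, 16 moved a share or median beyond its own error or a count of genes by over 1.5 times. The other 23 did not, among them genes marked in WT alone at 632 in the stronger 50% and 662 in the promoter table alone (816 reported). The stronger 50% cuts each list at its own median, so a shared peak whose partner lies under the cut counts as one-sided. This made 554 WT peaks one-sided, where 10 above the WT median had no TKO peak in the whole lists. One-sided values at this setting therefore do not check those of the whole lists. The cause of a move was not tested unless the setting shows it. The share of one-sided WT peaks (10.9%) was 12.8% where 50% of a peak had to be covered, 13.6% in the stronger 50% of each list, 5.45% at equal peak numbers and 10.1% with no other peak within 10 kb. Among WT peaks at or over the TKO floor, a setting chosen after seeing the data, it was 6.59%. One-sided TKO peaks (0.933%) were 4.08% in the stronger 50% and 4.46% at equal numbers. The share was larger in WT in 7 of 7 settings compared, all drawn from the same 2 lists. Except at equal numbers, the longer WT list favours this direction in advance, so the settings are not separate checks. The median log2 width ratio was -0.28 in stronger pairs and with peaks within 5 kb joined. Pairs that moved by over 10 points were 22.6% by total signal, 41.0% by highest and 47.8% by mean signal. Genes marked in WT alone were 401 at equal numbers, and in TKO alone 174 in the stronger 50% and 308 at equal numbers. The share of one-sided WT peaks at a protein-coding start was 93.0% in the stronger 50%, and the share marked in both mutants 59.1% with 50% covered. With unknown depth, a missing weak peak may be present under the threshold.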

Other observations

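Narrow TKO peaks were frequent in 1 stretch of chromosome 1. Between 150 and 162 Mb, which holds MTX1, THBS3, EFNA3 and PEA15, 16 of 116 pairs (13.8%) had a TKO width of at most 1 in 2 of the WT width, against 134 of 7067 elsewhere (1.90%), and the median log2 width ratio was -0.55 against -0.29. The stretch was chosen after its values were seen. Ranks did not follow: 11 of the 116 pairs fell and 11 rose by over 10 points, and 12 of 134 WT peaks there had no TKO peak. ZNF687 and TAGLN2 lie in the same stretch.

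Of 1558 miRNA hairpins in the RefSeq table, 160 lay in a WT peak and 133 in a TKO peak, with 28 in WT and not TKO and 1 in TKO and not WT. Of the 28, 8 lay in one-sided WT peaks and 20 in WT peaks that had a TKO peak which did not reach the hairpin. Over all peaks, 10.9% of WT peaks had no TKO peak and 91.9% of pairs were narrower in TKO. A hairpin counted where a peak overlapped it, so peak width bears on these counts, and nothing particular to miRNAs was tested. MIR17 was among the 20, under a WT peak at percentile 78.5. MIR21 lay in a one-sided WT peak at percentile 5.12 of the WT list and MIR210, a miRNA of the hypoxia response, in one at 13.5. MIR1908 lay in the one-sided peak of FADS1 and FADS2.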
